A study of Mus musculus with 12 samples.

Results

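Aggrecan (Acan), SPARC-related modular calcium-binding protein 1 (Smoc1), spondin-1 (Spon1), matrilin-4 (Matn4), fibrillin-1 (Fbn1), decorin (Dcn), the transmembrane chondroitin sulphate proteoglycan NG2 (Cspg4), osteonectin (Sparc), fibronectin (Fn1) and tenascin-C (Tnc) are 10 matrix genes that encode no collagen. They were picked by symbol from 55367 genes, some for large differences seen in the Foxe1 knock-out libraries and the rest as matrix genes to set them against. All 10 were measured in 12 RNA sequencing libraries of mouse posterior tongue organoids, and all 10 passed the filter on low counts that left 17076 genes to test. Knock-out against wild type values of these genes are therefore given as a description with no test.

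The organoids, which are 3-dimensional epithelial cultures, were grown from 2 kinds of taste papilla, the circumvallate papilla at the back of the tongue (CVP) and the foliate papilla at its sides (FoP). In the CVP line the groups were Foxe1 knock-out clones 2.10 and 2.9 and a wild type culture, and in the FoP line Foxe1 knock-out clones 2.5 and 2.4 and a wild type culture. Each was sequenced in duplicate, which gives 4 knock-out and 2 wild type libraries per line. The question was what changes with loss of Foxe1, a forkhead transcription factor. No treatment beyond the genetic modification is labelled, the cell type is labelled as various, and the labels give neither the animals' age or strain nor how Foxe1 was altered. Each knock-out arm rests on 2 clones and each wild type arm on cultures with no clone number, so genotype and the derivation of a clone cannot be told apart. No label says that duplicates came from separate cultures, so p-values measure only the spread between libraries, which may be technical.

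Proteoglycans carry sulphated sugar chains on a core protein. In cartilage, aggrecan binds to hyaluronan through link proteins and holds water, while matrilins bridge collagen fibrils and proteoglycans. Matricellular proteins such as osteonectin, tenascin-C and the spondins sit in the matrix and tune adhesion and growth factor signals more than they bear load, and fibronectin and fibrillin-1 build the fibrils that integrins hold on to. In epithelial organs most of these products are usually made by the stroma, and some, such as tenascin-C, also by epithelium.

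Libraries held 59.3 to 73.6 M counts. Foxe1 itself did not follow the labels. It stood at 7.33 and 8.46 CPM (counts per M, on library sizes scaled by the TMM method) in clone 2.10 and at 23.7 and 22.7 CPM in clone 2.9, against 15.4 and 15.9 CPM in CVP wild type. In the FoP line it stood at 11.2 and 11.5 CPM in clone 2.5 and at 22.4 and 20.0 CPM in clone 2.4, against 16.3 and 16.0 CPM in wild type. In each line 1 clone was thus below and 1 above wild type, and below "knock-out" means the libraries labelled so. Of the 8 epithelial markers all were tested, with a summed level of 10300 to 15600 CPM over the 12 libraries. Of 15 fibroblast markers 8 were tested, Lum and Dpt had 0 counts in every library, and Col3a1, Twist1, Twist2 and Pi16 had at most 10. The immune marker Ptprc was at 0, and the endothelial markers Cdh5, Kdr, Tie1 and Emcn had at most 10 counts. The immune marker Cd68 had 94 to 986 counts. Endothelial Pecam1 stood at 1.31 to 2.71 CPM in CVP knock-out and 0.454 to 0.722 CPM in CVP wild type. In FoP it stood at 1.67 to 2.70 and 0.305 to 0.356 CPM. Tek went the other way, at 0.0602 to 0.380 and 0.583 to 0.835 CPM in CVP. In FoP knock-out it stood at 0.263 to 0.451 CPM, against 0.581 to 0.906 CPM in wild type.

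The name cartilage was checked against 8 chondrocyte markers, of which 4 were tested. Matn1, Matn3 and Snorc, all defining for chondrocytes, had at most 6 counts in any library. Col2a1, the main collagen of cartilage, stood at 0.649 to 2.14 CPM in CVP knock-out and 0.25 to 0.615 CPM in CVP wild type, and at 0.174 to 1.35 CPM in FoP knock-out and 0.501 to 1.12 CPM in FoP wild type. Sox9, a chondrocyte regulator that many epithelia also express, stood at 478 to 601 CPM in CVP knock-out and 319 to 407 CPM in CVP wild type, and at 506 to 537 CPM in FoP knock-out and 392 to 397 CPM in FoP wild type. It made up nearly all of the sum of the 8 markers, which was 481 to 604 CPM in CVP knock-out and 320 to 408 CPM in CVP wild type, and 509 to 538 CPM in FoP knock-out and 394 to 399 CPM in FoP wild type. Every knock-out library was thus above wild type for Sox9, and the part of this in the levels of the matrix genes was not tested. Col11a2, another cartilage collagen gene, had at most 99 counts in any library and Col2a1 at most 138. "Cartilage" is used here for where these proteins are best known.

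**Figure D1:**
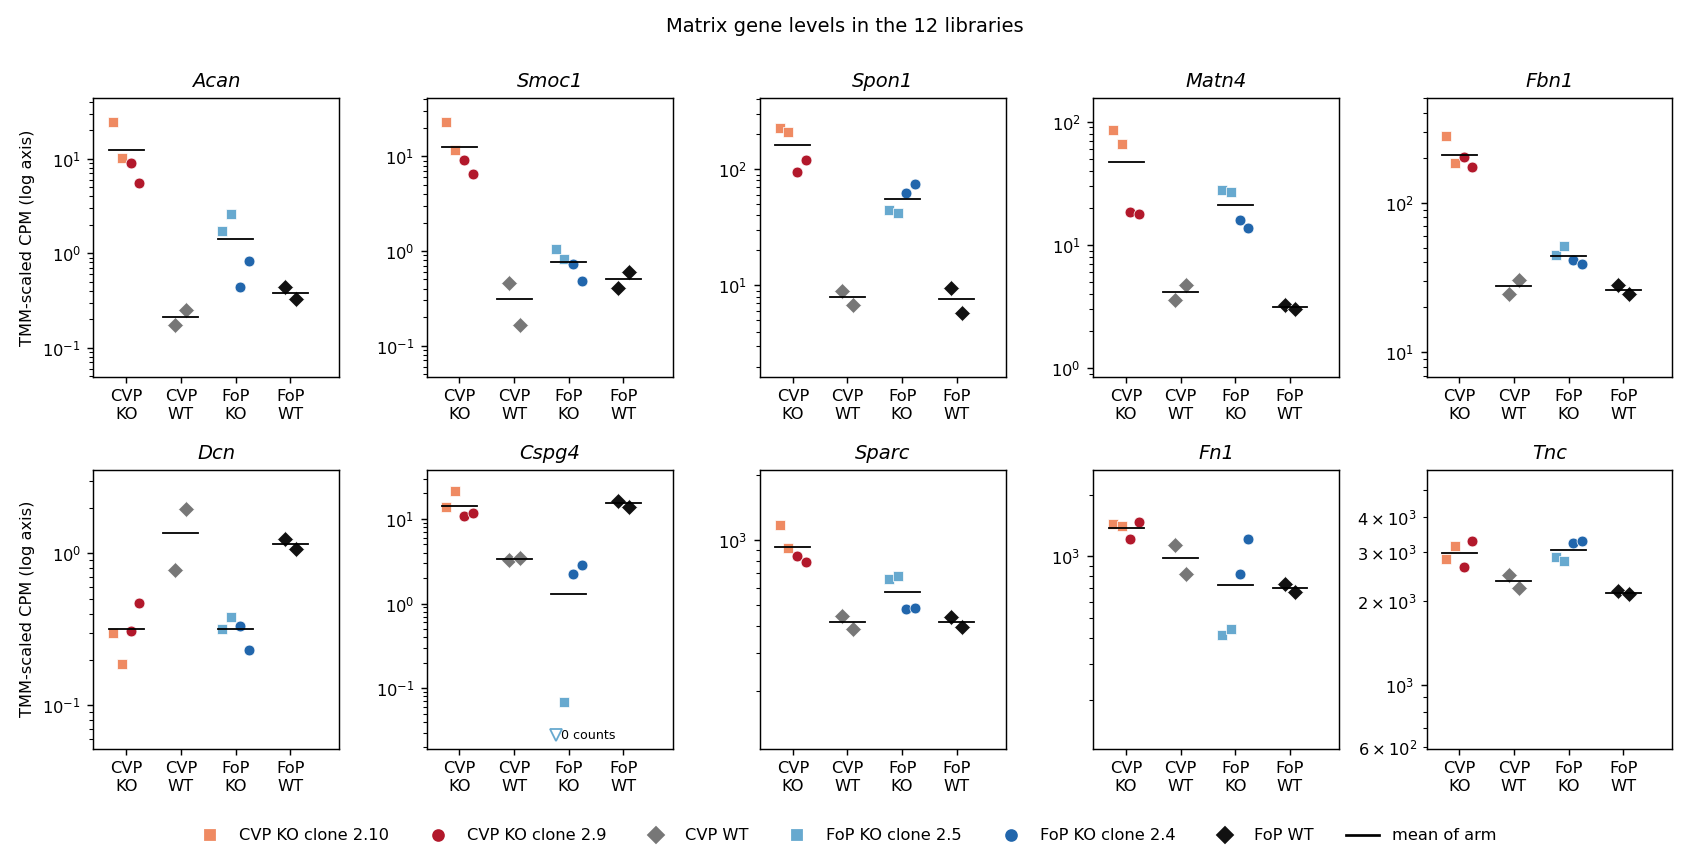
Level of each matrix gene in each library, as TMM-scaled CPM on a log axis with a separate scale for each gene; points are libraries, coloured by clone or wild type culture, and the bar is the arm's mean. Acan and Smoc1 reached 24.2 and 22.9 CPM in CVP knock-out and stayed under 0.5 CPM in CVP wild type, while Cspg4 in clone 2.5 is at 0 counts in 1 library (open triangle).

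Levels of different genes were compared per kilobase of merged exon. Tenascin-C, osteonectin and fibronectin led in all 4 arms in that order, with no overlap between neighbours within an arm. In CVP knock-out they stood at 382 ± 36.0, 246 ± 43.7 and 118 ± 9.91 CPM per kb (SD, n = 4), and in CVP wild type at 302 ± 21.7, 110 ± 11 and 83.6 ± 19.3 CPM per kb (SD, n = 2). In FoP knock-out the same genes stood at 391 ± 31.4, 152 ± 28.5 and 62.0 ± 32.5 CPM per kb (SD, n = 4), and in FoP wild type at 275 ± 4.63, 110 ± 8 and 60 ± 3.70 CPM per kb (SD, n = 2). The other 7 genes were far lower in every arm.

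Below those 3 the order differed between arms. In CVP knock-out Fbn1 (17.3 CPM per kb), Spon1 (15.6), Matn4 (9.09), Smoc1 (3.60), Acan (1.64) and Cspg4 (1.20) followed, and every neighbour in that run overlapped. In CVP wild type the order was Fbn1 (2.28 CPM per kb), Matn4, Spon1, Cspg4, Dcn, Smoc1 and Acan (0.0285), and the overlapping neighbours were Matn4 with Spon1 and Cspg4 with Dcn. Decorin had the lowest mean of the 10 in knock-out of both lines, at 0.0545 CPM per kb in CVP and 0.0542 in FoP. In FoP knock-out it overlapped with Cspg4, which at 0 and 0.00582 CPM per kb was below decorin in both clone 2.5 libraries. Aggrecan was the lowest in wild type of both lines, at 0.0285 CPM per kb in CVP and 0.0508 in FoP.

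Promoter sequences are shown for the genes at the extremes of the knock-out values, Acan, the highest over wild type in CVP, and Cspg4, the lowest in FoP. RefSeq promoters (GRCm38.p6, 250 bases before to 50 after a start) were at hand for 6 of the 10 genes, in 8 windows. Both printed windows lie on the plus strand, Acan at chr7:79052976-79053275 and Cspg4 at chr9:56864854-56865153. The Acan window ends before the start of the GENCODE M21 gene, at 79053483. Capitals mark GGGCGG or its reverse complement, the core of sites that SP and KLF factors bind.

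Acan: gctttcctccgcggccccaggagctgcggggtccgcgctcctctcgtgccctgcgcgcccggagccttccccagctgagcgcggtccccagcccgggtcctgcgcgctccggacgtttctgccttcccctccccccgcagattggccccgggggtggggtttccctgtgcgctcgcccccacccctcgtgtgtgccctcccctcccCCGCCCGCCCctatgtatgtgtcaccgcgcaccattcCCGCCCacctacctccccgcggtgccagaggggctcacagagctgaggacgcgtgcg

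Cspg4: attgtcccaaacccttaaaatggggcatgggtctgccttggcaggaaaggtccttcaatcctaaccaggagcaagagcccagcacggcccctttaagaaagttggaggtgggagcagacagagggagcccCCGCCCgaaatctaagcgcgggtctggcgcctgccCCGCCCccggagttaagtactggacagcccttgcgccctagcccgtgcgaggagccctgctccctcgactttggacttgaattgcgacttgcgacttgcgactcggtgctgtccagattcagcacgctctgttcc

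Acan held GGGCGG 3 times, 2 of them overlapping by 2 bases, and Cspg4 held it 2 times. Of the 8 windows 6 held it, those of Acan, Cspg4, Fbn1, Tnc (both) and the second of Matn4, and it was in 35.7% of 32851 promoters of the same length. The Tnc windows overlap each other and hold the same match, which is thus counted 2 times. The forkhead letters GTAAACA (3.65% of all promoters), the SOX letters ACAAAG or ACAATG (28.6%) and the AP-1 letters TGANTCA (7.81%) were searched on both strands and were in none of the 8 windows. A match describes the letters only.

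In the CVP line the matrix genes were nearly all higher in knock-out than in wild type. The knock-out and wild type libraries did not overlap for any of the 10 genes, with 9 higher and decorin lower. Without overlap were 61.7% of all 17076 tested genes, 31.7% higher and 30.0% lower, and since large differences chose these genes nothing is read from that count. Higher by over 2-fold were 7 of the 10 (10.8% of tested genes) and lower by over 2-fold was 1 (6.91%). The median log2 fold change was 2.51 over the 10 genes and 0.03 over all tested genes. In bulk libraries fewer cells with a transcript and less of it per cell cannot be told apart.

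In the FoP line the knock-out differences were smaller for 8 of the 10 genes, and larger for Cspg4 and Tnc. For 6 genes the knock-out libraries lay above wild type, for Dcn and Cspg4 below, and for Smoc1 and Fn1 the groups overlapped. Among all tested genes 23.9% lay wholly above, 25.8% wholly below and 49.7% did not overlap. Over 2-fold higher were Acan, Spon1 and Matn4 (6.45% of tested genes) and over 2-fold lower were Dcn and Cspg4 (5.94%). The median log2 fold change was 0.56 over the 10 genes and 0.01 over all tested genes.

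Aggrecan, the proteoglycan that gives cartilage its resistance to compression, stood at 24.2 and 10.1 CPM in clone 2.10 and at 9.09 and 5.58 CPM in clone 2.9, against 0.176 and 0.250 CPM in CVP wild type. All 4 knock-out libraries were above both wild type libraries, which held 12 and 18 counts. The fitted log2 fold change was 5.83 ± 0.99 (SE), and 3201 counts against 30 gave a depth-scaled ratio of 57.9 with a 95% counting interval of 40.5 to 85.9. In the FoP line it stood at 1.73 and 2.62 CPM in clone 2.5 and at 0.441 and 0.836 CPM in clone 2.4, against 0.436 and 0.324 CPM in wild type. The lowest knock-out library, with 29 counts, was level with the higher wild type library, with 30 counts. The log2 fold change of 1.87 ± 0.85 in FoP was 0.74 without clone 2.5.

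Matrilin-4, an adaptor protein of pericellular matrix, stood at 86.3 and 65.6 CPM in clone 2.10 and at 18.4 and 17.8 CPM in clone 2.9, against 3.59 and 4.76 CPM in CVP wild type. The clones formed separate levels, both above wild type. Over both clones the log2 fold change was 3.49 ± 0.81, and it was 2.12 without clone 2.10 and 4.18 without clone 2.9. In the FoP line it stood at 27.7 and 26.7 CPM in clone 2.5 and at 16.0 and 13.7 CPM in clone 2.4, against 3.28 and 3.03 CPM in wild type. Here too each clone had its own level above wild type, with a log2 fold change of 2.74 ± 0.80. Rbpjl, on the other strand and overlapping Matn4, held at most 132 counts, against at most 5732 for Matn4.

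Among the matricellular genes, Smoc1 encodes a calcium-binding protein of the SPARC family found near basement membranes. It stood at 22.9 and 11.7 CPM in clone 2.10 and at 9.27 and 6.46 CPM in clone 2.9, against 0.454 and 0.167 CPM in CVP wild type. The groups were far apart, with a log2 fold change of 5.34 ± 0.67, from 31 and 12 counts in wild type. Among the FoP cultures it stood at 1.05 and 0.833 CPM in clone 2.5 and at 0.729 and 0.480 CPM in clone 2.4, against 0.407 and 0.599 CPM in wild type. There the groups overlapped, and the log2 fold change was 0.62 ± 0.58.

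Spondin-1, a thrombospondin-repeat protein known for guiding axons, stood at 227 and 210 CPM in clone 2.10 and at 93.8 and 119 CPM in clone 2.9, against 9.01 and 6.76 CPM in CVP wild type. Among the FoP cultures it stood at 44.3 and 42.2 CPM in clone 2.5 and at 62.3 and 73.9 CPM in clone 2.4, against 9.50 and 5.84 CPM in wild type. Every knock-out library was more than 4 times the highest wild type library of its line. This gave a log2 fold change of 4.36 ± 0.52 in CVP and 2.86 ± 0.48 in FoP.

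Osteonectin, a collagen-binding matricellular protein, stood at 1170 and 922 CPM in clone 2.10 and at 844 and 791 CPM in clone 2.9, against 447 and 389 CPM in CVP wild type. Among the FoP cultures it stood at 658 and 682 CPM in clone 2.5 and at 480 and 487 CPM in clone 2.4, against 439 and 396 CPM in wild type. Knock-out libraries were above wild type in both lines, clone 2.4 only narrowly. Osteonectin had a log2 fold change of 1.15 ± 0.19 in CVP and 0.47 ± 0.19 in FoP, where it was 0.69 without clone 2.4 and 0.21 without clone 2.5.

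Tenascin-C, a large multi-armed glycoprotein of remodelling tissue, stood at 2830 and 3130 CPM in clone 2.10 and at 2650 and 3270 CPM in clone 2.9, against 2470 and 2230 CPM in CVP wild type. In FoP organoids it stood at 2880 and 2780 CPM in clone 2.5 and at 3230 and 3260 CPM in clone 2.4, against 2160 and 2110 CPM in wild type. The knock-out libraries were above wild type in both lines by less than 2-fold, with log2 fold changes of 0.34 ± 0.10 in CVP and 0.50 ± 0.10 in FoP.

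Of the fibril builders, fibrillin-1, the backbone of microfibrils, stood at 279 and 186 CPM in clone 2.10 and at 202 and 174 CPM in clone 2.9, against 24.7 and 30.6 CPM in CVP wild type. In FoP organoids it stood at 45.0 and 51.6 CPM in clone 2.5 and at 41.6 and 39.3 CPM in clone 2.4, against 28.1 and 24.5 CPM in wild type. Both lines had every knock-out library above wild type, by log2 2.92 ± 0.22 in CVP and 0.75 ± 0.20 in FoP.

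Fibronectin, the integrin-binding glycoprotein, stood at 1440 and 1400 CPM in clone 2.10 and at 1220 and 1470 CPM in clone 2.9, against 1140 and 817 CPM in CVP wild type. In FoP organoids it stood at 412 and 444 CPM in clone 2.5 and at 823 and 1220 CPM in clone 2.4, against 732 and 671 CPM in wild type. The FoP clones lay on opposite sides of wild type. Fibronectin had a log2 fold change of 0.50 ± 0.41 in CVP and 0.05 ± 0.40 in FoP, and in FoP it was -0.71 without clone 2.4 and 0.54 without clone 2.5.

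Decorin, a small leucine-rich proteoglycan that binds collagen fibrils and is abundant in fibroblasts, stood at 0.301 and 0.186 CPM in clone 2.10 and at 0.310 and 0.475 CPM in clone 2.9, against 0.776 and 1.97 CPM in CVP wild type. Among the FoP cultures it stood at 0.318 and 0.382 CPM in clone 2.5 and at 0.334 and 0.232 CPM in clone 2.4, against 1.25 and 1.07 CPM in wild type. Every knock-out library was below wild type, at 12 to 30 counts in CVP knock-out and 53 to 142 in CVP wild type. Decorin had a log2 fold change of -2.11 ± 0.41 in CVP, where it was -1.28 without wild type duplicate 2, and -1.87 ± 0.41 in FoP.

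Fibroblast markers differed between the same groups as decorin. The 15 markers summed to 2900 to 4790 CPM in CVP knock-out and 1360 to 1640 CPM in CVP wild type, and to 2850 to 6000 CPM in FoP knock-out and 900 to 1030 CPM in FoP wild type. Most of that sum was Postn, a matricellular gene. Without Postn and Vim, a split made after the values were seen, the other 13 summed to 6.59 to 15.6 CPM in CVP knock-out and 29.0 to 30.3 CPM in CVP wild type, and to 7.57 to 16.8 CPM in FoP knock-out and 23.8 to 24.9 CPM in FoP wild type. Within these 13 the genes differed in direction. Prrx1, a mesenchymal homeobox gene, made up most of the sum in wild type, at 1.14 to 5.75 CPM in CVP knock-out and 25.5 to 25.7 CPM in CVP wild type, and at 3.22 to 11.3 CPM in FoP knock-out and 19.1 to 21.9 CPM in FoP wild type. Pdgfra, a receptor of fibroblasts and other mesenchymal cells, went the other way, at 3.52 to 5.26 CPM in CVP knock-out and 0.972 to 1.16 CPM in CVP wild type, and at 2.54 to 3.96 CPM in FoP knock-out and 0.857 to 1.37 CPM in FoP wild type. Pdgfrb was also higher in CVP knock-out, at 0.186 to 0.708 CPM, than in CVP wild type, at 0.0293 to 0.0833 CPM. In FoP it overlapped, at 0 to 0.170 CPM in knock-out and 0.0291 to 0.0647 CPM in wild type. Vim, left out of the smaller sum, stood at 85.4 to 135 CPM in CVP knock-out and 27.3 to 36.3 CPM in CVP wild type. It overlapped in FoP, at 40.9 to 68.6 CPM in knock-out and 48.6 to 64.8 CPM in wild type. The part of a cell type in the decorin values was not tested.

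Cspg4, which encodes the NG2 proteoglycan of pericytes and glial progenitors, went opposite ways in the lines. It stood at 13.9 and 21.1 CPM in clone 2.10 and at 10.9 and 11.6 CPM in clone 2.9, against 3.28 and 3.44 CPM in CVP wild type. Among the FoP cultures it stood at 0 and 0.0694 CPM in clone 2.5 and at 2.23 and 2.85 CPM in clone 2.4, against 16.5 and 14.0 CPM in wild type. All CVP knock-out libraries were above wild type and all FoP knock-out libraries below, by log2 2.09 ± 1.14 in CVP and -3.55 ± 1.03 in FoP. The FoP value was -8.75 without clone 2.4, a fitted value that depends on the prior count because clone 2.5 held 0 and 4 counts. Pericyte and smooth muscle markers, 6 of 9 tested, summed to 216 to 392 CPM in CVP knock-out and 181 to 201 CPM in CVP wild type, and to 164 to 294 CPM in FoP knock-out and 147 to 178 CPM in FoP wild type. Most of that sum was Notch3 and Acta2, and Acta2 is also among the myoepithelial markers. Notch3 stood at 146 to 157 CPM in CVP knock-out and 128 to 132 CPM in CVP wild type. In FoP it stood at 114 to 134 and 111 to 119 CPM. Acta2 overlapped, at 57.8 to 246 CPM in CVP knock-out and 52.0 to 67.1 CPM in CVP wild type. In FoP it stood at 49.2 to 156 and 35.5 to 56.1 CPM. Of the defining markers Kcnj8 was at 0 in every library, and Abcc9 and Des had at most 10 counts.

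**Figure D2:**
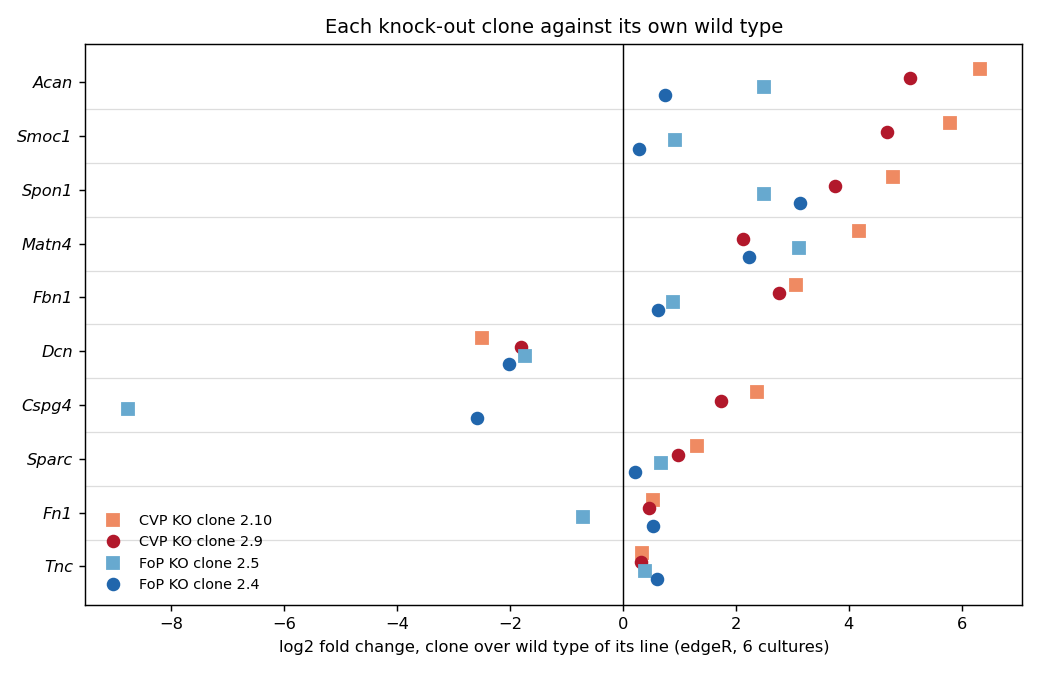
Log2 fold change of each knock-out clone over the wild type culture of its line, from the edgeR fit of 6 cultures; each point is 1 clone and the line at 0 is wild type. Spon1 and Matn4 lie at or above 2.12 in all 4 clones, Dcn lies at or below -1.73 in all 4, and Cspg4 is positive in the CVP clones and negative in the FoP clones.

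Each clone was also set against the wild type of its own line, with the 2 clones of a line sharing that wild type. Spon1 and Matn4 were over 2-fold higher in all 4 clones, as were 1.76% of tested genes. Decorin was over 2-fold lower in all 4, as were 1.66%. Acan, Smoc1, Fbn1, Sparc and Tnc were higher than wild type in all 4 clones, all but Tnc by smaller margins in FoP, which with Spon1 and Matn4 makes 7 genes (26.7% of tested genes). Acan had log2 values of 6.32 in clone 2.10, 5.09 in clone 2.9, 2.50 in clone 2.5 and 0.74 in clone 2.4. For 6 of the 10 genes both CVP clones were over 2-fold higher (7.8% of tested genes), and for Spon1 and Matn4 both FoP clones were (3.87%).

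Clone against clone is another contrast than knock-out against wild type, and it was tested over all 17076 genes in a fit of the 6 cultures. It draws on the same knock-out libraries in which large differences led to the choice of some of these genes, so the p-values of the 10 are not free of that choice and their counts are no independent evidence. In CVP, 2 of the 10 genes were called between clone 2.10 and clone 2.9, against 5.42% of all tested genes, and both were higher in clone 2.10 (2.89% higher and 2.54% lower among all tested genes). Matn4 averaged 76.0 ± 14.6 CPM in clone 2.10 and 18.1 ± 0.414 CPM in clone 2.9 (SD, n = 2 each). The log2 fold change was 2.07 ± 0.14 (edgeR quasi-likelihood test, Benjamini-Hochberg adjusted p = 1.16e-06), and it passed in every alternative run. Spon1 averaged 218 ± 11.8 CPM in clone 2.10 and 106 ± 17.6 CPM in clone 2.9 (SD, n = 2 each), with a log2 fold change of 1.04 ± 0.21 (edgeR, adjusted p = 0.0368). The Spon1 call was lost with any of the 4 libraries of these clones left out, at edgeR adjusted p of 0.0841 to 0.203, with no filter (0.0786) and with a replicate block (0.0637).

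The other 8 genes did not pass between the CVP clones, though 5 of them did in some alternatives. Acan averaged 17.2 ± 9.94 CPM in clone 2.10 and 7.33 ± 2.48 CPM in clone 2.9 (SD, n = 2 each; log2 1.23 ± 0.42, edgeR adjusted p = 0.174), and Smoc1 17.3 ± 7.93 CPM in clone 2.10 and 7.87 ± 1.99 CPM in clone 2.9 (log2 1.13 ± 0.35, edgeR adjusted p = 0.110). Both were higher in each clone 2.10 library than in either clone 2.9 library, with a wide gap between the clone 2.10 duplicates. Without clone 2.10 duplicate 2 both passed, at edgeR adjusted p of 0.00341 for Acan and 0.00524 for Smoc1. Smoc1 also passed with a replicate block (0.0137) and with no filter (2.31e-06). Sparc was at log2 0.35 ± 0.10 (edgeR adjusted p = 0.0615) and Cspg4 at 0.64 ± 0.21 (0.114). The Sparc difference passed with the DESeq2 Wald test (adjusted p = 0.00751), a replicate block (0.024), no filter (3.58e-07) and without clone 2.10 duplicate 2 (0.00109). That of Cspg4 passed with the DESeq2 Wald test (adjusted p = 0.0168), no filter (0.000203) and without clone 2.10 duplicate 1 (0.0102). Fbn1, Fn1 and Tnc overlapped between the clones, and without clone 2.10 duplicate 2 Fbn1 passed (edgeR adjusted p = 0.045).

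In FoP, 4 of the 10 genes were called between clone 2.5 and clone 2.4, against 7.26% of all tested genes. Matn4 and Sparc were higher in clone 2.5 (3.53% of tested genes) and Cspg4 and Fn1 lower (3.72%). Cspg4 had 4 counts over both clone 2.5 libraries and 331 over both clone 2.4 libraries. Its log2 fold change was -6.18 ± 0.51 (edgeR, adjusted p = 1.01e-05), and the depth-scaled level in clone 2.4 was 76.5 times that in clone 2.5, with a 95% counting interval of 29.6 to 282. Matn4 averaged 27.2 ± 0.707 CPM in clone 2.5 and 14.9 ± 1.61 CPM in clone 2.4 (SD, n = 2 each; log2 0.87 ± 0.14, edgeR adjusted p = 0.00186). Both calls held in every alternative run, and without clone 2.5 duplicate 2, which leaves 0 counts in clone 2.5, the fitted Cspg4 value of -10.38 depends on the prior count.

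Fibronectin averaged 428 ± 22.6 CPM in clone 2.5 and 1020 ± 282 CPM in clone 2.4 (SD, n = 2 each; log2 -1.26 ± 0.22, edgeR adjusted p = 0.0153). Its call was lost without clone 2.5 duplicate 1 (0.0863) or duplicate 2 (0.0812). Osteonectin averaged 670 ± 17.4 CPM in clone 2.5 and 484 ± 5.05 CPM in clone 2.4 (log2 0.47 ± 0.10, edgeR adjusted p = 0.0132), and its call was lost with any of these 4 libraries left out, at adjusted p of 0.056 to 0.105. Acan was higher in clone 2.5, at log2 1.76 ± 0.55, and did not pass (edgeR adjusted p = 0.104). With the DESeq2 Wald test Acan passed (adjusted p = 0.0232). Spon1 was lower in clone 2.5, at log2 -0.66 ± 0.22, and did not pass (edgeR adjusted p = 0.139). Neither did Tnc, at log2 -0.20 ± 0.09 (0.226), though it passed in edgeR with no filter (0.00728).

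Matn4 was therefore called in both pairs of clones, higher in clones 2.10 and 2.5, with p-values not free of the choice of these genes. These are also the clones with the lower Foxe1 transcript, at 7.33 to 11.5 CPM, against 20.0 to 23.7 CPM in clones 2.9 and 2.4. With 1 such clone per line the relation between the genes was not tested.

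**Figure D3:**
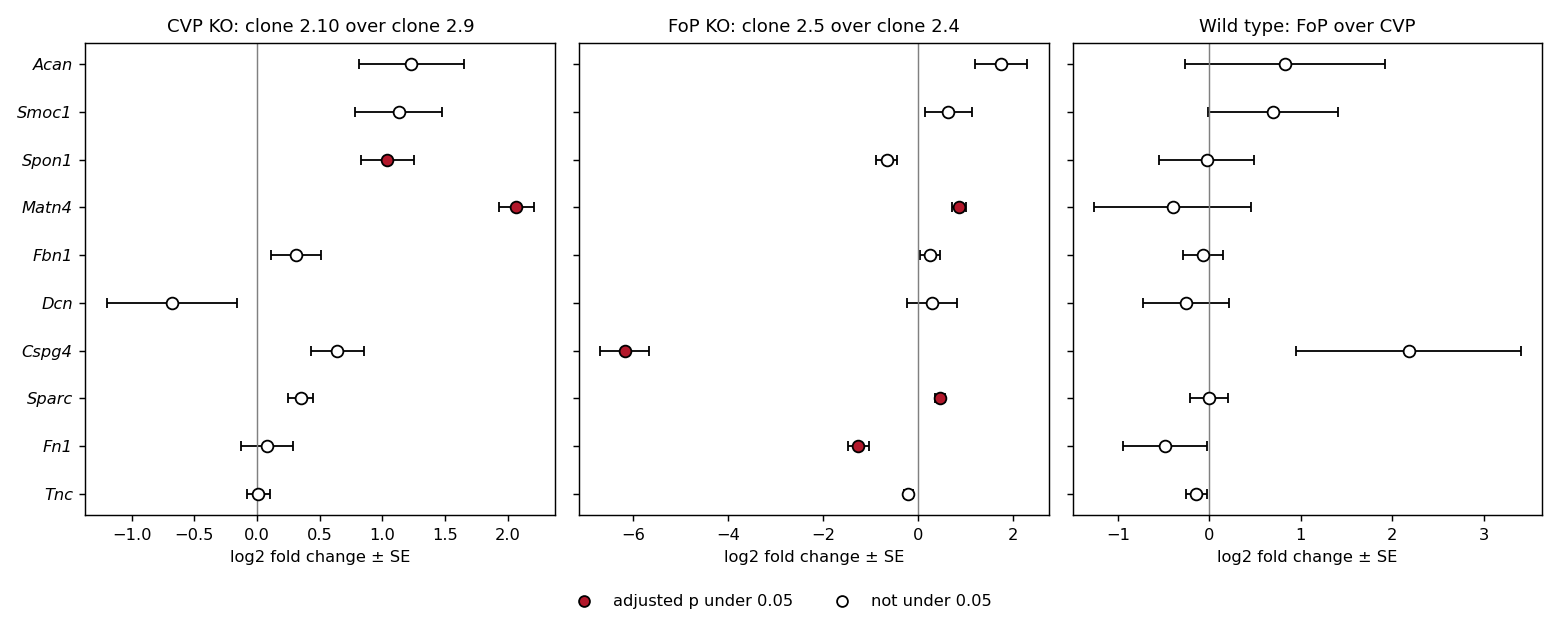
Log2 fold change ± SE of each gene between the CVP clones (2.10 over 2.9), the FoP clones (2.5 over 2.4) and the wild type cultures (FoP over CVP), each panel with its own axis; filled points have an edgeR adjusted p under 0.05. Matn4 is filled in both clone panels, Cspg4 lies at -6.18 between the FoP clones, and no point is filled in the wild type panel.

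The neighbours of Cspg4 on chromosome 9 were looked up after its values were seen. Odf3l1, an outer dense fibre family gene whose annotated end lies 0.4 kb before the start of Cspg4, stood at 0.493 and 1.11 CPM in clone 2.5 and at 2.32 and 2.28 CPM in clone 2.4, against 0.625 and 0.647 CPM in FoP wild type. Clone 2.5 was thus close to wild type and clone 2.4 above it, unlike Cspg4. The log2 fold change between the clones was -1.53 ± 0.34 (edgeR, adjusted p = 0.0138), and it did not pass without either clone 2.4 library or clone 2.5 duplicate 1, at adjusted p of 0.0599 to 0.125. Of the neighbours shown, up to 68.6 kb away, the other 5 were not called. Among them were Snx33, at log2 -0.13 ± 0.06 (edgeR, adjusted p = 0.201), and Lingo1, at 0.73 ± 0.34 (0.239). Gm47237, 3.6 kb away on the other side, was at -2.06 ± 1.51 (0.481). It rested on few counts, at 0.0795 and 0 CPM in clone 2.5 and 0.076 and 0.279 CPM in clone 2.4.

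**Figure D4:**
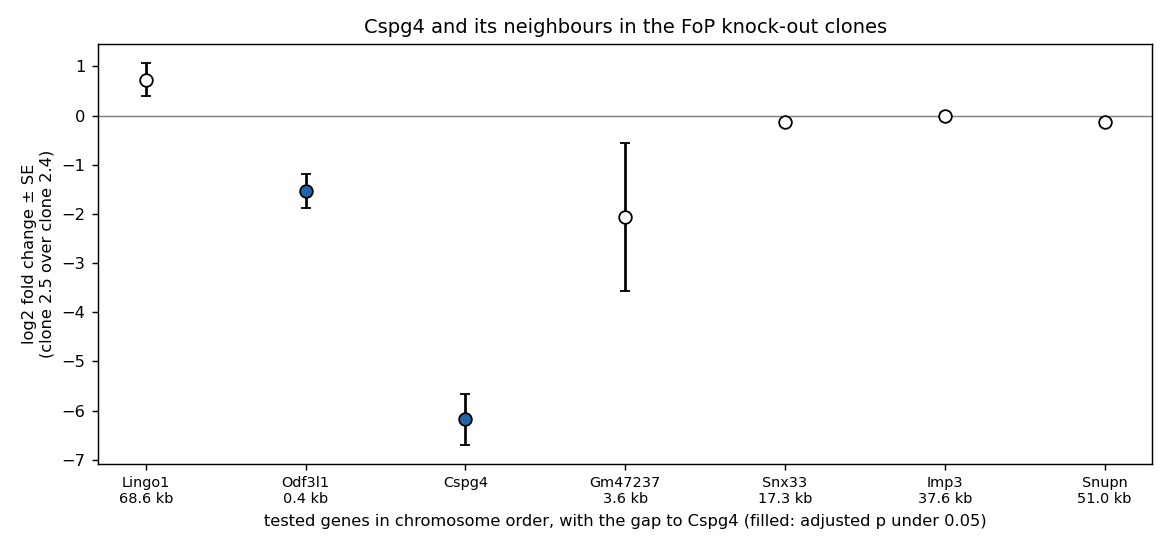
Log2 fold change ± SE between clone 2.5 and clone 2.4 for Cspg4 and tested genes near it, in chromosome order with the gap to Cspg4 in kb; filled points have an edgeR adjusted p under 0.05. Cspg4 stands at -6.18 and Odf3l1 at -1.53, and Snx33, Imp3 and Snupn lie within 0.20 of 0. Gm47237, with few counts, stands at -2.06 with an SE of 1.51.

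The wild type lines gave the remaining test. None of the 10 genes was called between FoP wild type and CVP wild type, against 6.68% of all tested genes (edgeR quasi-likelihood test). At an unadjusted p under 0.05 were 0 of the 10 and 3860 of all tested genes, and neither the DESeq2 Wald test nor limma voom called any of the 10. Spon1 averaged 7.67 ± 2.59 CPM in FoP wild type and 7.88 ± 1.59 CPM in CVP wild type (SD, n = 2 each; log2 -0.03 ± 0.52), Fbn1 26.3 ± 2.52 CPM in FoP wild type and 27.7 ± 4.14 CPM in CVP wild type (-0.07 ± 0.22), and Sparc 417 ± 30.3 CPM in FoP wild type and 418 ± 41.6 CPM in CVP wild type (0.00 ± 0.21). The groups overlapped for all 3.

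Cspg4 averaged 15.2 ± 1.77 CPM in FoP wild type and 3.36 ± 0.115 CPM in CVP wild type (SD, n = 2 each). Both FoP libraries were over 4 times both CVP libraries. The log2 fold change of 2.18 ± 1.23 did not pass in the fit of 4 arms, whose spread includes the knock-out clones (edgeR, adjusted p = 0.347). In 2 fits added after the data were seen it passed, at 2.18 ± 0.22 with the 6 cultures kept apart (adjusted p = 6.76e-05) and at 2.17 ± 0.13 with the wild type libraries alone (1.6e-08). The line with more Cspg4 in wild type was the line with less of it in knock-out.

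Genes whose pattern over the 12 libraries was most like that of each matrix gene were ranked by Pearson's r of log2 CPM. The 12 libraries share cultures and the knock-out contrast, so r is a description. Spon1 was most like Thbs1 (r = 0.996), another thrombospondin-repeat protein, Reps2 (0.990) and Ltbp4 (0.985), which encodes a latent TGF-beta binding protein. Acan was most like Gart (0.985), Vtcn1 (0.982) and Sparc (0.981), and Smoc1 had Fbn1 (0.967) among its 3. Tnc was most like Cyp4b1 (0.975) and Postn (0.973), and Matn4 most like Adgrl3 (0.982). Between the 10 genes r was 0.94 for Acan with Smoc1 and 0.96 for Acan with Fbn1. Cspg4 had r of 0.06 with Spon1, 0.07 with Sparc and 0.77 with Fn1, and Dcn was negative with 8 of the other 9 genes, down to -0.89 with Spon1.

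Other matrix genes were read from 9 lists holding 248 genes, of which 187 were tested. The lists were chosen with earlier results of these data known. Their p-values and shares are therefore not free of that choice and are no independent evidence. In CVP 66 of these rose and 35 fell in knock-out (edgeR, adjusted p under 0.05), 54.0% against 46.4% of all tested genes, of which 23.5% rose and 22.9% fell. In FoP 51 rose and 20 fell, 38.0% against 28.8% of all tested genes, of which 13.5% rose and 15.3% fell. Without FoP wild type duplicate 1 the FoP total of 71 was 34 and without duplicate 2 it was 36. With duplicates summed per culture 56 passed in CVP and 2 in FoP. In that fit each wild type arm is 1 summed sample, and of the FoP genes named below only Timp3 kept its call. Of the CVP genes named below, Col11a1, Chst3, Itga2, Itga8, Hdac4 and Pthlh lost theirs. Many list counts of 3 or fewer moved by over 1.5 times with a library or clone left out. Between FoP and CVP wild type 8 were higher and 8 lower in FoP, 8.56% against 6.68%, and with any wild type library left out the 16 came to at most 2.

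**Figure D5:**
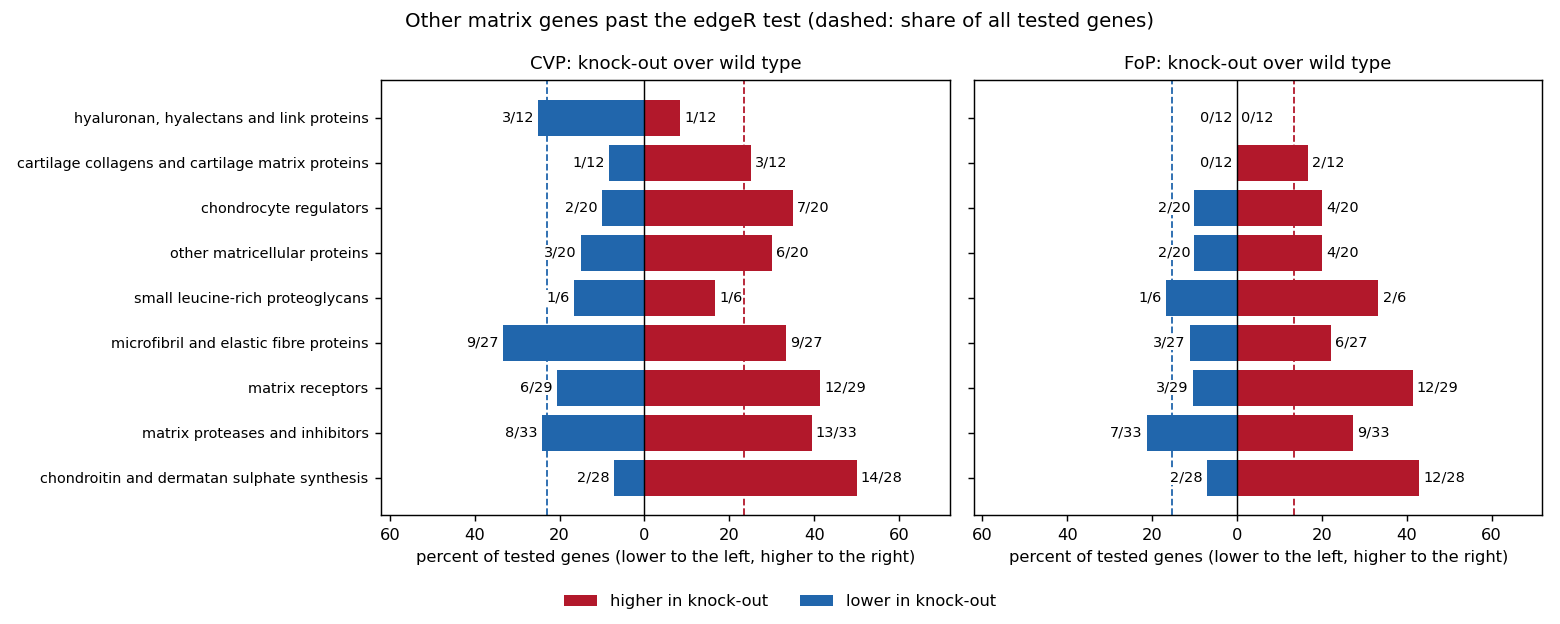
Share of the tested genes of each list that were lower (left, blue) or higher (right, red) in knock-out at an edgeR adjusted p under 0.05, for CVP and FoP, with the counts beside each bar; dashed lines are the shares of all tested genes. Chondroitin and dermatan sulphate synthesis has 14 of 28 genes higher in CVP and 12 of 28 higher in FoP.

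The listed genes of chondroitin and dermatan sulphate synthesis, which build sugar chains carried by aggrecan and NG2, were all tested. Of 28 chondroitin and dermatan sulphate synthesis genes 14 rose and 2 fell in CVP knock-out, and 12 rose and 2 fell in FoP knock-out, where 7 rose without wild type duplicate 2. In CVP 57.1% of the 28 were called, against 46.4% of all tested genes. In FoP 14 of the 28 were not called, and 28.8% of all tested genes were called. Among all tested genes 23.5% rose and 22.9% fell in CVP, and 13.5% rose and 15.3% fell in FoP. The median log2 fold change of the 28 was 0.19 in CVP and 0.14 in FoP, against 0.03 and 0.01 over all tested genes. Xylt1, the xylosyltransferase that starts the chain, averaged 7.18 ± 1.41 CPM in CVP knock-out (SD, n = 4) and 1.81 ± 0.693 CPM in wild type (SD, n = 2; log2 1.99 ± 0.24, edgeR adjusted p = 3.2e-05). The sulphotransferase gene Chst3 rose by log2 1.17 ± 0.21 in CVP (edgeR adjusted p = 0.00116) and Chst12 by 1.06 ± 0.12 in FoP (5.3e-05), while Chst14, which acts on dermatan sulphate, fell by 0.56 in CVP (2.22e-05).

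Of the cartilage collagens and other cartilage matrix proteins 12 of 25 were tested, and 3 rose and 1 fell in CVP knock-out. The called share was 33.3% in CVP and 16.7% in FoP, below the 46.4% and 28.8% of all tested genes. In FoP 2 rose, and 0 did without wild type duplicate 1 or 2. Col9a3, a chain of collagen IX, averaged 287 ± 94.1 CPM in CVP knock-out (SD, n = 4) and 57.8 ± 7.68 CPM in wild type (SD, n = 2; log2 2.31 ± 0.32, edgeR adjusted p = 0.000397). Col11a1, a chain of collagen XI, averaged 37.7 ± 20.5 CPM in CVP knock-out and 4.51 ± 0.0811 CPM in wild type (log2 3.06 ± 0.62, edgeR adjusted p = 0.00355). Mgp, the matrix Gla protein that inhibits calcification, fell to 16.6 ± 10.2 CPM in CVP knock-out, against 84.1 ± 6.52 CPM in wild type (log2 -2.34 ± 0.58, edgeR adjusted p = 0.00985). Of 21 hyaluronan, hyalectan and link protein genes 12 were tested, 1 rose and 3 fell in CVP (33.3% called) and none was called in FoP. The link protein gene Hapln1, which ties aggrecan to hyaluronan in cartilage, had at most 1 count in any library.

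Of 20 tested chondrocyte regulators 7 rose and 2 fell in CVP knock-out, and 4 rose and 2 fell in FoP knock-out. These shares, 45.0% in CVP and 30.0% in FoP, were close to the 46.4% and 28.8% of all tested genes. Sox5, a partner of Sox9 in cartilage, averaged 6.17 ± 1.27 CPM in CVP knock-out (SD, n = 4) and 1.88 ± 0.364 CPM in wild type (SD, n = 2; log2 1.71 ± 0.28, edgeR adjusted p = 0.000329). In FoP it averaged 5.71 ± 1.67 CPM in knock-out and 2.19 ± 0.213 CPM in wild type (log2 1.38 ± 0.28, edgeR adjusted p = 0.00269). Shox2, a homeobox gene of the limb skeleton, averaged 15.1 ± 8.94 CPM in CVP knock-out and 0.0586 ± 0.0828 CPM in wild type (edgeR adjusted p = 0.00033), with 1 wild type library at 0. Hdac4 fell in both lines, at log2 -0.32 ± 0.07 in CVP (edgeR adjusted p = 0.00172) and -0.20 ± 0.07 in FoP (0.0399). Pthlh fell in CVP, at log2 -0.63 ± 0.20 (edgeR adjusted p = 0.0257), and Gdf5 in FoP, at -1.97 ± 0.47 (0.00884). The Pthlh and Gdf5 calls and the FoP call of Hdac4 were lost in some fits with a library or clone left out. The FoP count of 4 that rose was 1 without wild type duplicate 1 and 2 without duplicate 2.

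Of 20 other matricellular genes tested 6 rose and 3 fell in CVP knock-out, and 4 rose and 2 fell in FoP knock-out. Here too the shares, 45.0% in CVP and 30.0% in FoP, were close to the 46.4% and 28.8% of all tested genes. The CVP count of 6 was 3 without clone 2.10 or without wild type duplicate 2. Fstl1, a follistatin-like relative of Sparc, averaged 512 ± 84.4 CPM in CVP knock-out (SD, n = 4) and 121 ± 1.56 CPM in wild type (SD, n = 2; log2 2.08 ± 0.15, edgeR adjusted p = 2.16e-06), and Thbs3, a thrombospondin, rose by log2 1.62 ± 0.24 (0.000129). Postn, periostin, averaged 4210 ± 1610 CPM in FoP knock-out and 882 ± 77.8 CPM in wild type (log2 2.26 ± 0.36, edgeR adjusted p = 0.0016). Ccn1, a secreted integrin ligand, fell in both lines, at log2 -0.71 ± 0.15 in CVP (edgeR adjusted p = 0.00334) and -0.93 ± 0.15 in FoP (0.00131), while its relative Ccn2 rose in FoP by 1.20 ± 0.24 (0.00444). Tgfbi, a matrix adaptor protein, fell in CVP, at log2 -0.85 ± 0.10 (2.96e-05).

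Around fibrillin-1, 27 microfibril and elastic fibre genes were tested, of which 9 rose and 9 fell in CVP knock-out, and 6 rose and 3 fell in FoP knock-out. Without either FoP wild type library these FoP counts were 2 and 1. With all libraries 66.7% were called in CVP and 33.3% in FoP, against 46.4% and 28.8% of all tested genes. Adamts10, a protease-like protein that binds fibrillin-1, averaged 13.2 ± 1.52 CPM in CVP knock-out (SD, n = 4) and 1.93 ± 0.219 CPM in wild type (SD, n = 2; log2 2.78 ± 0.28, edgeR adjusted p = 1.17e-05). Adamtsl3 rose in CVP by log2 3.07 ± 0.51 (edgeR adjusted p = 0.00031). Fibulin-1, Fbln1, fell in both lines, at log2 -2.87 ± 0.26 in CVP (edgeR adjusted p = 3.26e-05) and -1.45 ± 0.26 in FoP (0.00316). Of the latent TGF-beta binding proteins, Ltbp2 fell in CVP, at log2 -2.47 ± 0.29 (edgeR adjusted p = 0.00015), and Ltbp4 rose in FoP by 0.94 ± 0.11 (9.49e-05).

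Of 29 tested matrix receptors 12 rose and 6 fell in CVP knock-out, and 12 rose and 3 fell in FoP knock-out, where 5 rose without wild type duplicate 1. Of the 29, 62.1% were called in CVP and 51.7% in FoP, against 46.4% and 28.8% of all tested genes. Itgb3, an integrin chain that binds fibronectin, rose by log2 1.51 ± 0.23 in CVP (edgeR adjusted p = 0.000356) and by 1.15 ± 0.23 in FoP (0.00381), and the syndecan Sdc3 rose by 0.83 ± 0.11 in CVP (8.93e-05). The collagen-binding integrin Itga2 fell in CVP, at log2 -0.83 ± 0.15 (edgeR adjusted p = 0.000926). Of 33 proteases and inhibitors 13 rose and 8 fell in CVP, where 7 rose without wild type duplicate 1, 4 fell without duplicate 2 and 5 fell without clone 2.10. In FoP 9 rose and 7 fell, and these counts were 4 and 4 without wild type duplicate 1 and 4 and 3 without duplicate 2. With all libraries 63.6% of the 33 were called in CVP and 48.5% in FoP. Timp3, a metalloprotease inhibitor that binds to matrix, averaged 1850 ± 151 CPM in CVP knock-out and 558 ± 49.4 CPM in wild type (log2 1.73 ± 0.12, edgeR adjusted p = 8.94e-07), and 2020 ± 271 CPM in FoP knock-out and 972 ± 12.5 CPM in wild type (1.05 ± 0.12, 4.71e-05). Adamts9, a protease of the aggrecanase family, fell in CVP, at log2 -0.92 ± 0.21 (edgeR adjusted p = 0.00356), and the collagenase Mmp13 fell in FoP, at -2.18 ± 0.35 (0.000772). Of 6 tested small leucine-rich proteoglycans other than decorin 1 rose and 1 fell in CVP (33.3% called). The gene that fell was Tsku, at log2 -0.74 ± 0.06 (edgeR adjusted p = 1.55e-06). The 1 that rose in CVP was not called without either wild type library, without clone 2.10 or without its duplicate 1. In FoP 2 rose and 1 fell, Prelp among the higher, at log2 0.68 ± 0.18 (edgeR adjusted p = 0.0186), and Tsku again lower, at -0.25 ± 0.06 (0.00594). Of the FoP calls upwards, 0 were left without wild type duplicate 1 or without clone 2.4 and 1 without wild type duplicate 2, and without that last library Tsku was at edgeR adjusted p = 0.0522.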

How the data were processed

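RNA was poly(A)-selected and stranded libraries were made with a TruSeq kit (labels' protocols). All values come from the deposited table of raw read counts per gene. Per the submitters' processing notes the tools were STAR and featureCounts and the genome hg38, with no version given, although the symbols are mouse and 96.2% match 1 locus of GENCODE M21 (GRCm38), from which loci and exon lengths were taken. Whether counting used strand is not given in the sources used; reads of overlapping genes (Rbpjl in Matn4, Apol7d in Fn1, 8030451A03Rik in Tnc) could not be told apart from those of the matrix genes. Counts of 2, 4, 6 and 8 were more frequent than the odd counts beside them, so both mates of a pair may have been counted, and counting intervals, which cover counting error only, may be too narrow.

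The genes and lists described here were chosen with earlier results of these data known. Libraries were grouped by line, genotype and clone from the labels. The main fit was edgeR 4.0.16 (R 4.3.3), quasi-likelihood test with TMM scaling and filterByExpr, over 4 arms (knock-out and wild type of each line) or, for clones, over 6 cultures, with Benjamini-Hochberg adjustment over 17076 genes and a threshold of 0.05. SE is approximate: the size of the log2 fold change divided by the square root of F. Log2 CPM for likeness used a prior count of 2. Alternatives were DESeq2 1.42.0 (its size factors in edgeR and its Wald test), limma 3.58.1 voom with culture as random effect, no filter, at least 1 CPM in 4 libraries, counts halved, duplicates summed per culture, a replicate block, and each library or clone left out. The edgeR fit was tested on simulated data. Duplicates differed by more than sampling noise, with a chi-square per degree of freedom of 8.17 to 40.7, and were kept as separate samples. Duplicate numbers did not pair the cultures.

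From each list the rule named, per line, up to 2 genes in each direction with the largest called log2 fold change, a mean log2 CPM of 0 or more and all knock-out libraries beyond both wild type libraries. Of the 31 genes so named in CVP and 27 in FoP, the text gives most of the 25 and 10 that kept their call with each library and each clone left out, a narrowing added after the values were seen. For the wild type comparison none of 9 did. Pthlh in CVP and Hdac4, Gdf5, Prelp, Tsku and Itga8 in FoP are given though their calls were not kept in all of these fits. Hapln1, Prrx1, Itga8 and the neighbours of Cspg4 were singled out after their values were seen.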

Additional observations from a re-analysis of the deposited data

Results flagged for a closer look

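Cspg4 was the matrix gene whose knock-out libraries lay on opposite sides of wild type in the 2 lines. Its log2 fold change was 2.09 in CVP, with 4 of 4 knock-out libraries above both wild type libraries, and -3.55 in FoP, with 4 of 4 below. The difference between the lines was not tested, because the knock-out contrast was used to choose the genes. Opposite directions were not particular to Cspg4. Itga8, of the matrix receptor list, stood at 1.43 to 2.40 CPM in CVP knock-out and 3.60 to 3.91 CPM in CVP wild type. In FoP it stood at 2.84 to 3.73 CPM in knock-out and 1.70 to 1.94 CPM in wild type. Its FoP call was lost in some fits with a library or clone left out.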

How the results depend on the processing

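The counts of called genes moved as follows. Knock-out against wild type gave 7929 genes in CVP, 3420 with duplicates summed per culture and 5238 to 7692 with each library left out. In FoP it gave 4921, 372 with duplicates summed and 2668 to 4683 with each library left out. FoP against CVP wild type gave 1140, 1997 with the DESeq2 Wald test, 512 with limma voom, 0 with duplicates summed (2788 and 3829 in the fits of 6 cultures and of wild type alone, added after the data were seen) and 101 to 156 with each library left out. Clone 2.10 against clone 2.9 gave 926, 1494 with no filter and 549 to 1026 with each library left out, and clone 2.5 against clone 2.4 gave 1239, 1913 with no filter and 509 to 648. The causes were not tested. The replicate block gave 7633, 4627, 895, 895 and 1143 genes for these 5 comparisons in the same order. Correlations of duplicate deviations between cultures were -0.056 to 0.114, so the number was not taken as a pairing.

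Among the tested contrasts of the 10 genes, signs turned only where the fit with all libraries made no call. Between the wild types, over fits with 1 library left out, Spon1 stood at -0.43 to 0.27 (0.19 in another), Fbn1 at -0.22 to 0.09 (0.02), Dcn at -0.77 to 0.58 and Sparc at -0.10 to 0.10 (0.07), and Sparc at 0.01 with duplicates summed. Between clones 2.10 and 2.9, Fbn1 stood at -0.01 to 0.57, Fn1 at -0.05 to 0.23 and Tnc at -0.13 to 0.17 (-0.06). The Fbn1 value of 0.57, without clone 2.10 duplicate 2, was the only called value among these. Fn1 in FoP knock-out against wild type, given with no test, also turned, at 0.05 with all libraries, -0.33 to 0.24 with 1 library left out and -0.10 with limma voom. For knock-out values of the 10 genes, 7 of 159 pairs of gene and alternative fit were marked as moved in CVP and 7 of 159 in FoP. Most of these had a clone left out. The fits share most of their libraries, so the pairs are not independent. Low counts limit Acan, Smoc1 and Dcn in wild type or knock-out, and Cspg4 in clone 2.5.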

Other observations

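Myoepithelial markers, 6 of 7 tested, summed to 4520 to 5880 CPM in CVP knock-out and 2260 to 2470 CPM in CVP wild type, and to 3410 to 4470 CPM in FoP knock-out and 3230 to 3260 CPM in FoP wild type. Most of that sum was Krt14, which is also among the epithelial markers, at 3830 to 5420 CPM in CVP knock-out and 1690 to 1880 CPM in CVP wild type. Trp63 went the other way in CVP, at 389 to 443 CPM in knock-out and 518 to 520 CPM in wild type, and Cnn1 and Myh11 were at most 2.45 and 0.774 CPM in any library. Immune markers, of which Cd68 was the 1 tested of 6, summed to 1.43 to 2.37 CPM in CVP knock-out and 13.4 to 14.5 CPM in CVP wild type, and to 3.78 to 5.04 CPM in FoP knock-out and 11.9 to 14.5 CPM in FoP wild type. Schwann and neural crest markers, 4 of 6 tested, summed to 107 to 115 CPM in CVP knock-out and 142 to 155 CPM in CVP wild type, and to 116 to 122 CPM in FoP knock-out and 126 to 129 CPM in FoP wild type. Endothelial and skeletal muscle markers summed to at most 3.13 and 1.17 CPM in any library. Their part in the levels of the matrix genes was not tested.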
